A study of Caenorhabditis elegans with 2 samples.

Results

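Of the 2349 nuclear peaks in the final list of LET-607 binding sites, 212 (9.03%) had their summit inside or within 100 bp of a transfer RNA (tRNA) gene of the Ensembl annotation of build WBcel235, and these 212 tRNA peaks are described here. The whole final list held 2372 peaks, mitochondrial ones included, and the other 2137 nuclear peaks serve as the comparison. Each tRNA peak had a different nearest tRNA gene, 12 of them had 2 tRNA genes within 100 bp, and 224 of the 612 nuclear tRNA genes (36.6%) had such a summit. A tRNA gene with a summit of the final list within 100 bp is called bound below, as shorthand for that measurement. Within the final list the rule used only position, so position near a tRNA gene is not a result. Nearby sequence is partly fixed with it. Chromosome and isotype were not used to choose the peaks. Rank and replicate values were not used to choose among listed peaks, but entry to the list depended on signal from both replicates. Peaks and genes are not replicates and there was 1 group of samples, so all comparisons are descriptions with exact 95% intervals (Clopper-Pearson for shares, order statistics for medians), which cover counting error only.

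The data are chromatin immunoprecipitation and sequencing (ChIP-seq) of LET-607 in whole young adult hermaphrodites of the transgenic C. elegans strain YL529, in which LET-607 bears GFP-FLAG at its C-terminus as a stable transgene. The animals were collected 67 h after they had been synchronized by bleaching and starvation as first-stage larvae, and the tagged protein was precipitated with an antibody against GFP from sonicated chromatin. There were 2 biological replicates of this single genotype and stage, all from 1 transgenic line, and the whole animal mixes all tissues, so a peak cannot be placed in a cell type. No untagged or unprecipitated sample was analysed here as a group, since the control entered only the authors' peak calls. The files gave peaks without read counts, so the depth is unknown. The authors describe the final list as peaks past their threshold on reproducibility between replicates (IDR). Its weakest tRNA peak, at C38C6.t1, had rank 2334 and a signal of 78.6 both there and in the relaxed list called on both replicates together. The final list thus acted as a cut on that pooled signal, and a peak in it need not be strong in each replicate. Ranks count from 1 at the highest of the authors' signal values among nuclear peaks, a scale without stated units that is read only within its own list.

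LET-607 belongs to the CREB3 family of basic leucine zipper factors, which are made as membrane proteins of the endoplasmic reticulum, and related factors bind DNA words built around TGACGT. The tRNA genes are transcribed by RNA polymerase III from promoters that lie inside the gene, where the factor TFIIIC recognises an A box near the start and a B box near the end, and transcription stops at a run of T just downstream. In C. elegans the tRNA genes are scattered among and within protein-coding genes, many exist as identical copies, and they are unusually dense on the X chromosome.

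To let the internal promoter be seen, tRNA genes of 6 different isotypes are shown, taken in order of peak strength among genes whose sequence can be printed here. Stronger Gly, Glu and Lys peaks, and a Ser peak stronger than the Ile one, were passed over by that limit. They are F15G9.t1 (Ala, X:9743589-9743660, + strand), C33G3.t2 (Lys, X:14063946-14064018, − strand), C04A11.t1 (Leu, X:13665555-13665673, + strand, with an intron), C18A11.t2 (Arg, X:8036685-8036757, − strand), T23F1.t2 (Pro, V:15465225-15465296, − strand) and F57F5.t1 (Ile, V:12002176-12002260, + strand, with an intron). The summit lay on the last base of F15G9.t1. It lay 13, 25 and 52 bp past the 3′ end of C18A11.t2, T23F1.t2 and F57F5.t1. At F15G9.t1 and T23F1.t2 there were 2 tRNA genes within 100 bp of the summit, so the peak may belong to either. Sequences are from the RefSeq genome of WBcel235, 5′ to 3′ along the gene, and capitals mark the B box in the form GTTCNANNC.
F15G9.t1: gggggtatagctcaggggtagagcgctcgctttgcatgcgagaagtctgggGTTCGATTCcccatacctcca
C33G3.t2: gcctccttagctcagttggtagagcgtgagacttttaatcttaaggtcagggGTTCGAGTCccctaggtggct
C04A11.t1: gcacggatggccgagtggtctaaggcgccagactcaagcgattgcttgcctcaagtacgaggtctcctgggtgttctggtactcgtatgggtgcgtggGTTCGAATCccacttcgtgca
C18A11.t2: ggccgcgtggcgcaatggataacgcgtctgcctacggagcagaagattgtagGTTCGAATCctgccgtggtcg
T23F1.t2: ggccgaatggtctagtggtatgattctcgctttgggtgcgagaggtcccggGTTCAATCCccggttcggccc
F57F5.t1: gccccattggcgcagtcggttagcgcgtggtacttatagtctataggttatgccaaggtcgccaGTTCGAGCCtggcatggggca

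The gene sequence at F15G9.t1 is also that of B0491.t1 (Ala, II:11334508-11334579, + strand), base for base, and that of C33G3.t2 is also that of C09B9.t1 (Lys, IV:5038920-5038992, + strand). Neither of these identical copies was bound. The copies differ in their flanks. The 50 bases upstream of each gene are shown first, with capitals for TGACG or its reverse complement CGTCA, the shorter core of the CREB word.
F15G9.t1, bound: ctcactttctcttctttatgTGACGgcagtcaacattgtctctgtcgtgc
B0491.t1, not bound: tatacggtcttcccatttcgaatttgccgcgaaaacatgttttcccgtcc
C33G3.t2, bound: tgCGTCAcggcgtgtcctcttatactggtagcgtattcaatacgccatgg
C09B9.t1, not bound: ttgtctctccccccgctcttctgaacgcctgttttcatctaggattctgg
In the same order, the 20 bases that follow each gene are shown with capitals for TTTT, the polymerase III stop signal.
F15G9.t1, downstream: gtaaTTTTTTTTgtgtttct
B0491.t1, downstream: gttaaacTTTTTgaaattgt
C33G3.t2, downstream: tgaTTTTTTggaaaatttgt
C09B9.t1, downstream: tgaTTTTTTgTTTTTgtttc
All 4 genes were followed by such a run. The TGACG core upstream of the bound copies did not hold as a pattern when every tRNA gene was counted, a count added after these sequences were read: it lay in the 50 bp upstream of 6 of the 224 bound genes (2.68%, interval 0.989 to 5.74%) and of 28 of the 388 unbound genes (7.22%, interval 4.85 to 10.3%). Both unbound copies had weaker summits in the pooled relaxed list, the authors' list before the reproducibility threshold, at rank 3842 for B0491.t1 and 3585 for C09B9.t1. B0491.t1 was at rank 11791 in replicate 1 and 2680 in replicate 2, and C09B9.t1 at 3116 and 7640.

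The tRNA peaks were of middle strength. The strongest, at the Gly gene M02F4.t1 on X, had rank 283 with a signal of 267, and none of the 212 was among the 200 strongest nuclear peaks. The median rank was 1441.5 (interval 1347 to 1549) for tRNA peaks and 1135 (1085 to 1187) for the other peaks, and the median signal was 107 and 124. With the list split into 4 equal bins by signal, from strong to weak, 14, 57, 78 and 63 peaks lay at tRNA genes, which is 2.39%, 9.71%, 13.3% and 10.7% of the peaks of each bin.

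The pooled relaxed list reached far below the final one. Down to the end of the final list it held the same tRNA peaks at the same ranks, so only its later ranks add to the bins above. Of its 26766 nuclear peaks, 445 (1.66%) lay at tRNA genes. The share was 1.8% among ranks 1 to 500, 8% from 501 to 1000, 12.4% from 1001 to 2000 and 8.6% from 2001 to 3000. It then fell away to 3.75% from 3001 to 5000, 1.4% from 5001 to 10000 and 0.245% beyond. Peaks at tRNA genes were thus most frequent between ranks 1001 and 2000. The blocks on either side, from 501 to 1000 (interval 5.78 to 10.7%) and from 2001 to 3000 (interval 6.94 to 10.5%), were alike. The final list ended in the later of these, at rank 2349. The nearest below its end were C25F6.t3 (Met) at pooled rank 2358, F48E3.t1 (Ala) at 2366, F11A1.t2 (Glu) at 2388 and rtw-5 (Trp) at 2398, all on X. A further summit at 2380 was nearest to F59C12.t2 (Asp, also on X), which was already bound through a stronger peak at rank 1360.

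**Figure D1:**
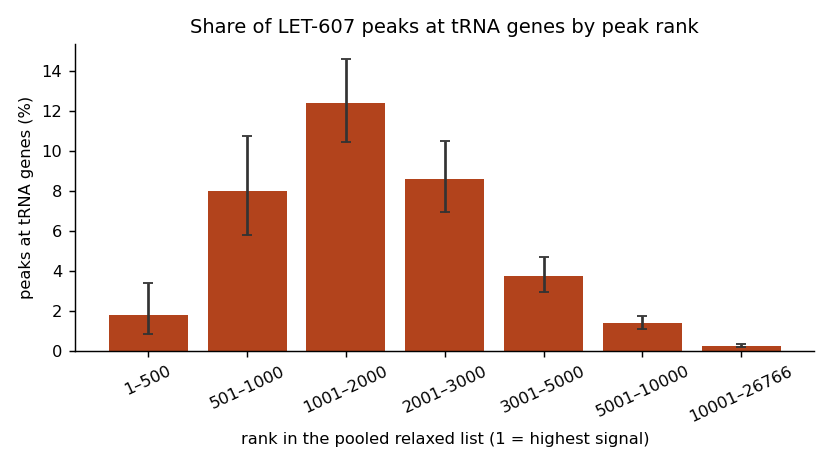
Bars give the percentage of peaks whose summit lay within 100 bp of a tRNA gene, in 7 blocks of the pooled relaxed list by rank (x axis, 1 is the highest signal), with exact 95% intervals. The share is 1.8% in the strongest 500, highest at 12.4% in ranks 1001 to 2000, and 0.245% in the weakest block.

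Loci with weaker summits were numerous. In the relaxed pooled list 441 of the 612 tRNA genes (72.1%) had a summit within 100 bp, among them 217 of the 388 unbound genes (55.9%). Both replicates had such a summit at 346 tRNA genes (56.5%), and neither had one at 118 (19.3%).

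The 15 strongest tRNA peaks covered 11 isotypes and had ranks from 283 to 595. In order they were nearest to M02F4.t1, F15G9.t1, C28G1.t1, B0350.t1, C33G3.t2, C04A11.t1, C18A11.t2, T23F1.t2, F02D10.t2, F57F5.t1, C04E7.t1, F01G12.t1, F41D9.t3, F46G11.t2 and W09G10.t3. M02F4.t1 ranked 289 in replicate 1 and 274 in replicate 2, and the Ala gene F15G9.t1, which lies within the extracellular matrix gene him-4, ranked 269 and 389. The Glu gene C28G1.t1 ranked 398 and 387, and the Lys gene B0350.t1 ranked 419 and 459. The 15 were chosen by a signal called on both replicates together, so high ranks in each replicate are not a result. Of the 15, 11 lay on X (73.3%, interval 44.9 to 92.2%), beside 54.7% of all tRNA peaks. A gene sequence shared with another tRNA gene was found at 12 of them (80%), close to the 83.0% of all bound genes and the 76.6% of all tRNA genes. The weakest 3 lay next to the cut on that pooled signal, so their split between replicates is not a result either. The Ser gene E03E2.t2 ranked 2055 and 6338, the Ser gene F22F1.t8 ranked 1734 and 12627, and the Leu gene C38C6.t1 ranked 1610 and 7336.

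Over all tRNA peaks, replicate 2 placed them higher than replicate 1. The median rank of the strongest overlapping peak was 1661 (interval 1484 to 1804) in replicate 1 and 1244.5 (1157 to 1375) in replicate 2, while for the other nuclear peaks it was 1076.5 and 1114. Of the 208 tRNA peaks with an overlapping peak in both lists, 76 (36.5%, interval 30 to 43.5%) ranked higher in replicate 1, compared with 1115 of 2126 other peaks (52.4%, interval 50.3 to 54.6%). The ranks of the replicates followed each other less closely at tRNA genes, with Spearman's rho of 0.33 over 208 peaks and 0.71 over 2126 other peaks, where points share their libraries and the other peaks span a wider range of ranks. Peaks at C06G1.t2 and W10G11.t1 had no overlapping peak in replicate 1, and those at T04D3.t2 and K11H3.t2 none in replicate 2 (4 peaks singled out after their values were seen). An overlapping peak can be that of a neighbour: the peaks at F46G11.t1 and F46G11.t2 both took ranks 730 and 521. Counted by summit, 208 of the 224 bound genes (92.9%) had a relaxed summit within 100 bp in both replicates.

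Overlap with the strongest peaks of each replicate depends on strength by construction, since the pooled signal was called on both replicates together. A fall in that overlap from the strong to the weak bins is therefore not a result, and only tRNA and other peaks within a bin are compared. Both replicates were compared by their strongest peaks, as many of each as the nuclear final list has. Of all nuclear peaks 71.9% overlapped such a peak in both, with 134 of 212 tRNA peaks (63.2%, interval 56.3 to 69.7%) and 72.8% of the others. Within the 4 bins of signal the shares were close: 100% and 99.7% in the strongest, 98.2% and 97.4% in the second, 70.5% and 69.2% in the third, and 14.3% (interval 6.75 to 25.4%) and 22.1% (18.7 to 25.9%) in the weakest, tRNA peaks first. By replicate, 75% of tRNA peaks overlapped a strongest peak of replicate 1 and 86.8% one of replicate 2, while for the other peaks it was 88.2% and 83.4%. With summits required within 100 bp of each other, 57.1% of tRNA peaks matched a strongest peak in both replicates.

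**Figure D2:**
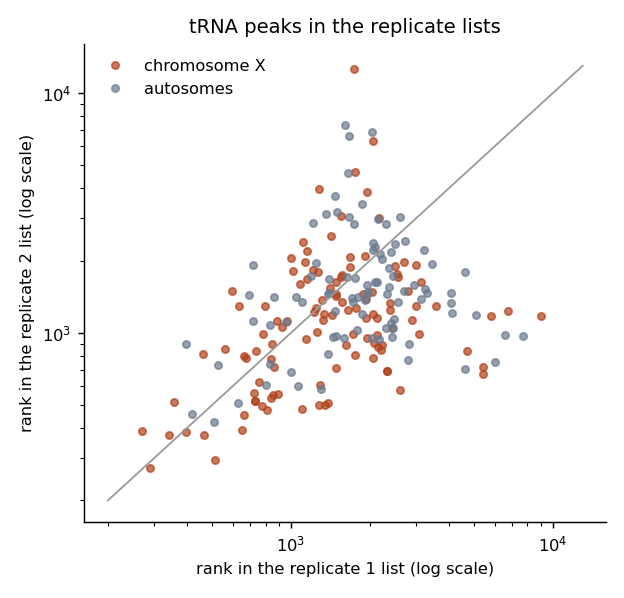
Each point is a tRNA peak with an overlapping peak in both replicates (208 peaks), placed by the rank of that peak in the replicate 1 list (x axis, log scale) and the replicate 2 list (y axis, log scale), coloured by chromosome, with the line of equal rank. More points lie below the line than above it, since 76 of the 208 ranked higher in replicate 1.

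The tRNA peaks were concentrated on X. Of all nuclear peaks 22.9% lay there, compared with 116 of the 212 tRNA peaks (54.7%, interval 47.8 to 61.5%) and 19.7% of the others. The X chromosome carries 276 of the 612 nuclear tRNA genes (45.1%), 15.6 per Mb as against 4.07 per Mb on the autosomes. Gene by gene, 123 of 276 were bound on X (44.6%, interval 38.6 to 50.6%) and 101 of 336 on the autosomes (30.1%, interval 25.2 to 35.3%), and these intervals did not overlap. The share was 30.3% on chromosome I, 31.6% on II, 32.8% on III, 33.8% on IV and 23.1% on V, each below that on X. The tRNA peaks on X were also stronger, with a median rank of 1265 (interval 1144 to 1406) and 1662.5 (1479 to 1857) on autosomes. In the pooled relaxed list the difference in share was smaller, 76.4% of tRNA genes on X and 68.5% on autosomes.

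The higher share on X was seen in most isotypes and in most sets of identical genes. Of the 20 standard isotypes, 17 had a higher share bound on X than on autosomes, and the exceptions were Arg, Cys and Trp. Any difference was counted, however small. Among the 17 it ran from Ile, at 5 of 13 on X and 6 of 16 on autosomes, to Asn, at 3 of 6 and 1 of 14. Sets of identical genes with copies on X and on autosomes numbered 43. Their copies on X were bound at 94 of 185 loci (50.8%, interval 43.4 to 58.2%) and those on autosomes at 74 of 223 (33.2%, interval 27.0 to 39.8%). The share was higher on X in 29 of these sets, higher on autosomes in 8 and equal in 6.

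All 20 standard isotypes had bound genes, at shares from 10% to 61.8%. Ala tRNA genes stood highest, with 21 of 34 bound (61.8%, interval 43.6 to 77.8%), followed by Ser with 21 of 39 (53.8%, interval 37.2 to 69.9%), Cys with 6 of 13 and Lys with 21 of 46 (45.7%). His tRNA genes stood lowest, with 2 of 20 (10%, interval 1.23 to 31.7%), then Gln with 5 of 27 (18.5%, interval 6.3 to 38.1%) and Asn and Met, each with 4 of 20 (20%, interval 5.73 to 43.7%). Ala and His are named as the ends of this order, and the intervals of isotypes next to each other in it overlapped. The range narrowed in the pooled relaxed list, in which 50% of His and 79.4% of Ala genes had a summit and Val stood highest at 87.1%. The single selenocysteine tRNA gene, K11H12.t1, was bound at rank 2301, and none of the 5 genes of undetermined isotype was.

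The strongest peak lay on X for 15 of the 20 standard isotypes. Beside the genes already named, these were at F52H2.t1 (Asp, rank 618), R11.t1 (Tyr, rank 676), H08J11.t3 (Gln, rank 679), R04D3.t2 (Val, rank 687), sup-7 (Trp, rank 776), C06G1.t1 (His, rank 814), F42D1.t1 (Cys, rank 970) and T28B4.t1 (Phe, rank 1515), all on X, and at T28F2.t1 on chromosome I (Met, rank 1052). The locus sup-7 is known from mutations that turn its Trp tRNA into a suppressor of stop codons. It ranked 1381 in replicate 1 and 509 in replicate 2, and its summit lay 36 bp upstream of the gene. C06G1.t1 ranked 596 and 1487, the opposite order.

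Among the unbound genes of the lowest isotypes, several had weak summits or none. The His gene C49F5.t1 had a summit at pooled rank 3258, at 2268 in replicate 1 and none in replicate 2, while B0513.t1 had one in replicate 1 only, at rank 21675. Of the Gln genes C05E7.t1 had pooled rank 2896 and its neighbour C05E7.t2 none in any list. For Asn, F27D4.t1 stood at pooled rank 19961 and F28F5.t1 had a summit in replicate 2 only, at rank 2079. For Met, C14B9.t1 stood at 4927 and C03F11.t1 had no summit in any list. A row of 6 His genes within X:14135045-14137010, F28H6.t2 to F28H6.t5, held no final peak (chosen after its values were seen).

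**Figure D3:**
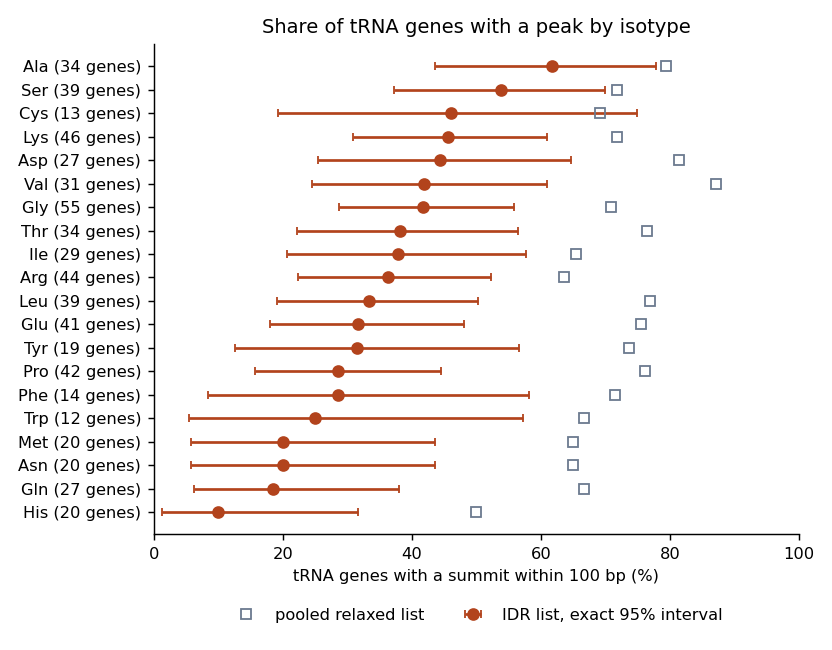
For each of the 20 standard isotypes (y axis, with the number of genes), filled points give the percentage of tRNA genes with a final-list summit within 100 bp, with exact 95% intervals, and open squares the percentage with a pooled relaxed summit. Filled points run from 10% for His to 61.8% for Ala, and the squares from 50% for His to 87.1% for Val.

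Identical gene sequences were bound at some loci and not at others. The 612 tRNA genes had 200 distinct sequences, of which 57 belonged to 2 or more genes. In 46 of these 57 sets some copies were bound and others not, in 2 every copy was bound and in 9 none was. The largest set, a Gly tRNA gene in 29 copies, had 15 bound, a Lys set of 25 had 12, a Pro set of 24 had 9 and an Asp set of 21 had 11. An Ala set of 15 had 11 bound (73.3%, interval 44.9 to 92.2%), an Arg set of 10, all on X, had 7, and at the other end a His set of 11 had 1 (9.09%, interval 0.23 to 41.3%) and a Gln set of 15 had 3.

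Genes with an identical copy were bound more often than those with a sequence of their own, at 186 of 469 (39.7%, interval 35.2 to 44.2%) and 38 of 143 (26.6%, interval 19.5 to 34.6%). Repeated sequence affects where reads can be placed. How the authors treated reads with several placements is not given in the sources used here. Within 100 bp of the summit, a median of 70.8% of 31-base words were unique in the genome at tRNA peaks and 100% at the other peaks. Over the gene with 100 bp to each side it was 78.1% for bound and 77.8% for unbound genes, and with 50 bp of flank to each side none of the bound genes and 2 of the unbound ones had an identical partner. The part of read placement in which copy was called bound was not tested, and single copies are uncertain to that extent.

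tRNA pseudogenes, which RefSeq lists separately from the tRNA genes, were nearly free of peaks. Of 209, 3 (1.44%, interval 0.297 to 4.14%) had a final summit within 100 bp, beside 36.6% of the tRNA genes, and 31 (14.8%, interval 10.3 to 20.4%) had a pooled relaxed summit, beside 72.1%. The 3 were T08B2.t1 on chromosome I at rank 783, D1046.t1 on chromosome IV at rank 849 and F19H8.t1 on chromosome II at rank 1724, each over 18 kb from the next tRNA gene. Of the pseudogenes 29 lay on X (13.9%) and none of these was bound, which allows a share of up to 10.3% taken as 3 counts of the total, or 11.9% as the exact bound.

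These pseudogenes differed less in their promoter words than in binding. The B box GTTCGANNC was in 144 of the 209 (68.9%, interval 62.1 to 75.1%), in 73.2% of bound and 71.4% of unbound tRNA genes. In the looser form GTTCNANNC it was in 78.9% of the pseudogenes, 97.8% of bound and 94.8% of unbound genes. One of TGGCNNAG, TAGCNNAG, TGGTNNAG and TAGTNNAG, taken for the A box, lay in the first 30 bases of 84.2% of the pseudogenes, 82.6% of bound and 77.6% of unbound genes. TTTT followed within 20 bp at 91.9%, 99.6% and 97.7%. These words were searched on the strand of the gene, and none separated bound from unbound genes by intervals that did not overlap. The median share of unique 31-base words over the locus was 97.1% for the pseudogenes, above that of the tRNA genes, and its part in these shares was not tested.

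Other polymerase III genes gave a mixed picture. The RNase P RNA gene rpr-1 had a summit inside it at rank 421, and the related RNase MRP RNA gene mrpr-1 had one 26 bp away at rank 1408, while the Y RNA gene yrn-1 had none. None of the 16 annotated 5S rRNA genes was bound, which allows a share of up to 18.75% taken as 3 counts of the total, or 20.6% as the exact bound, but their sequence is so repetitive that a median of only 6.52% of 31-base words was unique there. Among other small RNA genes, 72 of 346 snoRNA genes (20.8%, interval 16.7 to 25.5%) and 14 of 129 snRNA genes (10.9%, interval 6.06 to 17.5%) had a summit within 100 bp. The annotation gave no U6 name, so that polymerase III snRNA was not counted apart.

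Among protein-coding genes 7.7% had a final summit in their promoter window, from 1000 bp upstream to 200 bp downstream of the 5′ end. Of the 16 genes found on a list of polymerase III machinery and tRNA maturation factors, 2 did (12.5%, interval 1.55 to 38.3%). They were rpac-19, for a subunit shared by polymerases I and III, at rank 519 with the summit 114 bp upstream, and rpb-8, for a subunit of all polymerases, at rank 343 and 528 bp upstream. The genes of the TFIIIC subunits tftc-1, tftc-3 and tftc-5, of the initiation factor brf-1 and of the largest subunits rpc-1 and rpc-2 had no final summit there.

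**Figure D4:**
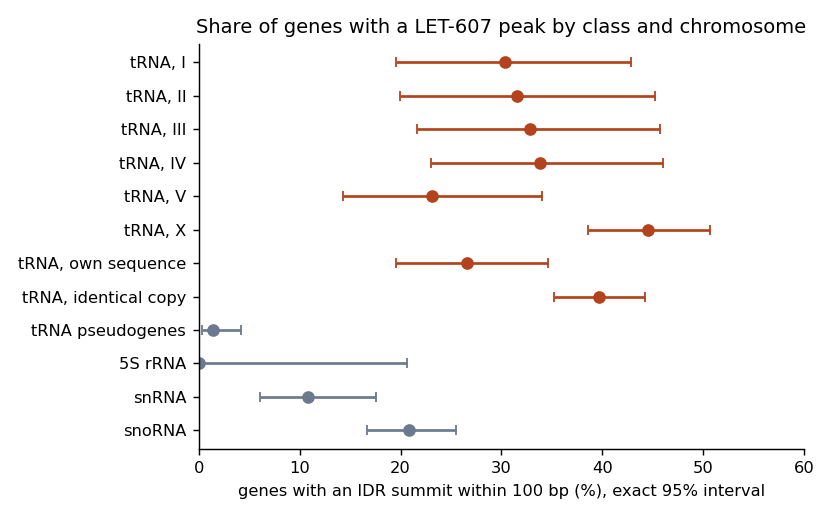
Points give the percentage of genes with a final-list summit within 100 bp, with exact 95% intervals, for tRNA genes by chromosome and by whether an identical copy exists, and for tRNA pseudogenes, 5S rRNA, snRNA and snoRNA genes. tRNA genes on X are at 44.6%, those on the other chromosomes between 23.1% and 33.8%, and tRNA pseudogenes at 1.44%.

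The rule bounds where summits can lie, so their positions are given as a description only. The median summit lay 29 bp (interval 12 to 37) downstream of the 5′ end, with 108 summits (50.9%) inside the gene, 67 (31.6%) upstream and 37 (17.5%) downstream of the 3′ end. Where the nearest gene had a B box, its centre was a median of 39 bp downstream of the summit (155 peaks). Of the tRNA peaks, 209 had a width of 424 bp, a width shared by 71.8% of the other peaks, so the lists do not give finer positions than the summit.

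**Figure D5:**
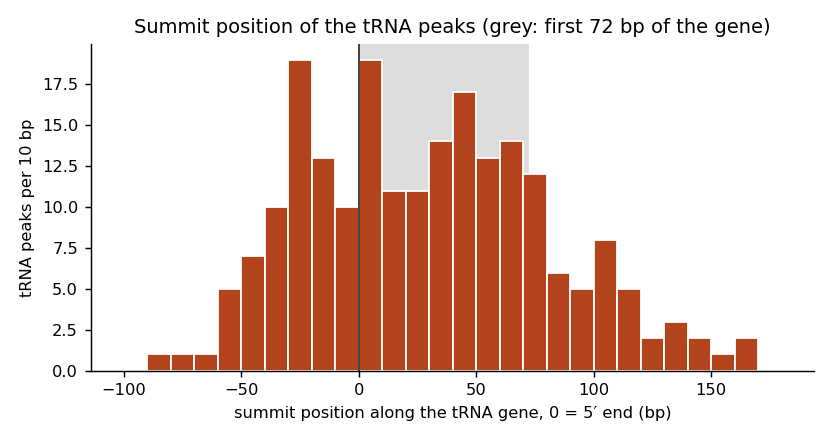
The histogram counts tRNA peaks (y axis) by the position of the summit along the nearest tRNA gene (x axis, bp from the 5′ end, bins of 10 bp), with the first 72 bp of the gene in grey. Summits spread from upstream of the gene to beyond its 3′ end, with a median of 29 bp.

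Few summits lay near the distance limit of 100 bp. Those just inside it were at F12D9.t5 (88 bp away, signal 80.7), F22B7.t3 (90 bp, signal 89.9) and R11B5.t2 (94 bp, signal 141), and those just outside at K02A4.t2 (101 bp, signal 97.8), T06H11.t2 (102 bp, signal 127) and C02B4.t1 (109 bp, signal 113). In all, 9 summits lay over 100 and up to 250 bp from a tRNA gene and 7 lay over 250 and up to 1000 bp away.

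The rule places a tRNA gene at each summit, so counts of the B box there are given as a description only. Within 50 bp of the summit, on either strand, the B box GTTCGANNC occurred at 4.09% of all nuclear peaks, at 69 of the 212 tRNA peaks (32.5%, interval 26.3 to 39.3%) and at 1.26% of the others. That difference is not a result, since 72.1% of tRNA genes hold the word, with 73.2% of bound and 71.4% of unbound ones. In windows centred 300 bp to the lower and to the higher coordinate it occurred at 0.943% and 2.36% of tRNA peaks. These windows lie beyond the nearest tRNA gene, so the lower shares there also follow from the rule.

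The CREB word TGACGT occurred at few of the tRNA summits and at few tRNA genes of either kind. It lay within 50 bp of the summit, on either strand, at 8.3% of all nuclear peaks and at 193 of the 2137 others (9.03%, interval 7.85 to 10.3%), but at 2 tRNA peaks (0.943%, interval 0.114 to 3.37%). The window at a tRNA summit is largely filled by the tRNA gene, which the rule fixed. Within 50 bp of the midpoint of the gene, a count added after the data were seen, the word lay at 1 of the 224 bound genes (0.446%, interval 0.0113 to 2.46%) and at 3 of the 388 unbound ones (0.773%, interval 0.16 to 2.24%). Windows 300 bp to the lower and higher coordinate of tRNA summits held it at 2.83% and 1.42%, and those of the other peaks at 2.95% and 3.42%. The longer TGACGTGG, which contains it, lay at 45 of the others (2.11%) and at 0 of 212 tRNA peaks, which allows a share of up to 1.42% taken as 3 counts of the total, or 1.72% as the exact bound. GACGTG, which overlaps both, lay at 8 tRNA peaks (3.77%, interval 1.64 to 7.3%) and 7.44% of the others. The 5-letter core TGACG, counted after the sequences were read, lay at 12 tRNA peaks (5.66%, interval 2.96 to 9.68%) and 23.0% of the others, with 9.43% and 7.55% in the flanking windows of tRNA peaks and 9.83% and 11.5% in those of the others. A missing word says only that these letters were not in the window.

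The 2 tRNA peaks with TGACGT both lay at Ala genes. They were C11E4.t1 on X at rank 1549 and Y65A5A.t1 on IV at rank 1799, neither among the strongest. The word was 37 bp from the summit at C11E4.t1, downstream of the gene (X:9622790-9622821, − strand), and 44 bp from it at Y65A5A.t1, just upstream of the gene (IV:16398360-16398383, − strand). The RefSeq sequence around each is shown with TGACGT in capitals.
C11E4.t1: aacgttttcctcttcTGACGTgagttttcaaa
Y65A5A.t1: gcaTGACGTgatgggttgtgggtg

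A tRNA peak takes the surroundings of its tRNA gene, so its place relative to protein-coding genes follows largely from the rule. Of all nuclear peaks 51.9% had their summit in such a promoter window, of tRNA peaks 47 (22.2%, interval 16.8 to 28.4%) and of the others 54.8%. The 5′ end of 113 of all 612 tRNA genes (18.5%) lay in such a window, of 23.2% of bound genes (interval 17.9 to 29.3%) and of 15.7% of unbound ones (interval 12.2 to 19.7%). Of the tRNA peaks 81 (38.2%) were intergenic and 77 (36.3%) in introns, compared with 21.5% and 17.9% of the others, and 4 were in coding and 3 in other exons. Of the 15 strongest, 5 were in promoter windows: C28G1.t1 in those of C28G1.2 (53 bp downstream of its 5′ end) and of sec-15, an exocyst subunit gene (354 bp upstream), T23F1.t2 in those of pqn-71 and rocf-1, F57F5.t1 in those of the guanylate cyclase gene gcy-33 and the cysteine protease gene cpr-9, C04E7.t1 in that of sor-3, and W09G10.t3 in that of the C-type lectin gene clec-126.

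The share bound inside and outside host genes differed by less than the width of the intervals. Of tRNA genes inside protein-coding genes 95 of 290 were bound (32.8%, interval 27.4 to 38.5%), and of those outside 129 of 322 (40.1%, interval 34.7 to 45.6%), with overlapping intervals. Among the former, 46 of 167 on the strand of the host (27.5%, interval 20.9 to 35.0%) and 49 of 123 on the opposite strand only (39.8%, interval 31.1 to 49.1%) were bound, and these intervals overlapped. Counted the other way, 20.5% of all bound genes (interval 15.4 to 26.4%) and 31.2% of all unbound ones (interval 26.6 to 36.1%) lay on the strand of a host gene, and these intervals did not overlap. On X the share was 46.9% inside and 43.3% outside, on autosomes 25.8% and 35.9%, so the order was not the same on both. tRNA genes with an intron were bound at 11 of 29 (37.9%) and those without at 36.5%.

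Clustered tRNA genes were bound no more often than single ones. A further tRNA gene lay within 1000 bp of 58 tRNA summits (27.4%, interval 21.5 to 33.9%). Counted from gene to gene, another lay within 1000 bp of 236 of all 612 tRNA genes (38.6%, interval 34.7 to 42.5%). For the 224 bound genes it was 74 (33.0%, interval 26.9 to 39.6%). Of tRNA genes with another within 1000 bp 31.4% (interval 25.5 to 37.7%) were bound, and 39.9% (interval 34.9 to 45.0%) of those without, with overlapping intervals. There were 19 clusters of 4 or more genes with gaps of up to 5000 bp, and 27 of their 87 genes (31.0%) were bound, compared with 112 of 287 genes (39.0%) that had no tRNA gene within 5000 bp. The largest cluster, F22F1.t1 to F22F1.t7 on X (X:8149156-8156707), had 2 of its 9 genes bound. A summit near closely spaced genes may belong to any of them, which limits the call of single genes there.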

How the data were processed

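Coordinates are 1-based on ce11, which has the coordinates of WBcel235. Per the deposited descriptions, the authors called relaxed peaks on each replicate and on both replicates together against 1 control, and kept those past the IDR threshold as the final list. Which aligner and which peak caller were used is not given in the sources used here. Each peak carried a signal deposited by the authors (column 7, scale not stated), used only for ranks within a list, and a deposited −log10 q-value (column 9), not used. Lists on ce10 were not used here. Both replicates were grouped from the labels' replicate numbers. Relaxed nuclear lists held 26442 peaks in replicate 1 and 22568 in replicate 2. No counts were analysed, so the depth and its precision are unknown.

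tRNA genes came from Ensembl release 115, and isotypes (607 of 612 genes) and 209 pseudogenes from RefSeq by WormBase gene. The final list was used as the authors gave it. Summits, word searches and positions were computed with Python 3.11.15, numpy 2.4.6, scipy 1.17.1 and matplotlib 3.10.9. The distance rule, the search for TGACGT and the interval of a median were tested on simulated data, and the other steps were not. Genes named were those at the 15 strongest and 3 weakest tRNA peaks, at the strongest peak of each isotype, the protein-coding genes of the former, the first 2 unbound genes of the isotypes with the lowest shares (10 or more genes, ties kept), and bound members of the polymerase III lists. Other genes named (unbound polymerase III genes, those next to the distance limit or just below the final list, and peaks missing from 1 replicate) were chosen after their values were seen. Members, lists and settings were chosen with earlier results of these data known. Alternatives were the distance limit, the stronger 50% of the list, each replicate alone, merged peaks, RefSeq genes, other overlap rules, word windows, promoter windows, cluster distances and flanks.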

Additional observations from a re-analysis of the deposited data

Results flagged for a closer look

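The mitochondrial genome was left out of every comparison above. It carried 23 final peaks, of which 5 had their summit within 100 bp of a mitochondrial tRNA gene. These summits were within reach of 11 of the 22 mitochondrial tRNA genes, and the strongest had rank 21 in the whole list. Bases within 100 bp of a tRNA gene made up 22.8% of the 13794 bp mitochondrial genome, and 5 of 23 peaks is close to that share, so the count is given as a value only.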

How the results depend on the processing

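Of 64 alternative values, 42 stayed within the interval of the value reported (counts within 1.5 times). With the summit inside the gene there were 108 peaks, 17.6% of tRNA genes were bound, 55.6% of peaks had a B box and 16.7% were in promoter windows. Limits of 50 and 250 bp gave 32.4% and 40.8% of genes. The stronger 50% of the list gave 71 peaks, 13.4% of genes, 70.4% on X, a median rank of 814 and 0% with TGACGT. Windows of 25 bp gave 19.8% with a B box and 0% with TGACGT, windows of 100 bp 65.1% with a B box, and the looser B box 48.6%. Promoter windows of 500 and 2000 bp gave 15.6% and 38.2%, and cluster distances of 500 and 5000 bp 17.9% and 47.2%. With 50 bp flanks, 0% of bound genes had an identical partner.

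With each replicate left out, as many of the strongest peaks of the other replicate gave 173 to 214 peaks, 29.9 to 36.4% of tRNA genes, 56.5 to 59.0% on X, a median rank of 1256.5 to 1439, a median position of 16 to 18.5 bp and 0.935 to 1.16% with TGACGT. The lowest counts came without replicate 2.

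No paired analysis was possible because there was 1 group. The number of tRNA genes called bound depends on where the list ends, since tRNA peaks were frequent near its limit, and unknown depth leaves genes without a peak undecided.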
